A study of Homo sapiens with 4 samples.

Results

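The OAS family comprises OAS1, OAS2, OAS3 and OASL, which were taken by gene symbol from the probes of a Toray 3D-Gene array of Panc1 cells. Each gene had 1 probe, so 4 of the array's 24460 gene probes, and 4 of its 17559 genes with a symbol, were described, and all 4 passed the filter on dim spots and lay above the limit of detection on all 4 arrays. The tested samples were 3 gemcitabine-resistant clones, GR1, GR3 and GR4, with 1 array each, and they were set against 1 array of parental Panc1 cells, an established line from a human pancreatic carcinoma, which received no gemcitabine. Gemcitabine is a deoxycytidine analogue that blocks DNA synthesis. The clones came from a single selection over 2 months, in which the drug was raised from 2 to 30 ng/ml before limiting dilution. All cells were grown in the same serum-containing medium, and nothing in the labels says that interferon was given to any of them. Whether the clones were in drug when RNA was taken is not given in the sources used here.

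Oligoadenylate synthetases are antiviral enzymes that interferon induces. When they bind double-stranded RNA they join ATP into short chains with 2′-5′ linkages, called 2-5A, which act as a second messenger of the antiviral response. OASL has the family's fold but does not make 2-5A. It carries a ubiquitin-like tail, supports the RNA sensor RIG-I and restrains the DNA sensor cGAS. Promoters of such genes commonly hold interferon-stimulated response elements, where a complex that holds STAT2 and IRF9 binds.

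All 4 genes had far less signal in the resistant clones than in parental cells. The mean of the clones was 13.4-fold lower for OASL, 10.9-fold for OAS1, 9.47-fold for OAS2 and 6.0-fold for OAS3. OAS1 and OAS2 fell by limma's test, and OAS3 and OASL did not pass it. Each gene was at least 5.08-fold lower in every clone. On all 4 probes the parental array lay above the 3 clones, so the groups did not overlap. That holds for 37.6% of the 22796 tested probes, while 3.32% were at least 2-fold lower in all 3 clones, as 4 of the 4 OAS probes were. At least 4-fold lower in all 3 clones were 0.645% of the probes, and again 4 of the 4. With another background correction (normexp on the spot and background columns) OASL was 3.19-fold lower in its nearest clone, so 3 of the 4 were at least 4-fold lower in every clone.

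The 3 synthetase genes OAS1, OAS3 and OAS2 lie side by side in that order on chromosome 12 of the human assembly GRCh38.p14. OAS1 spans 112906962 to 112933219, OAS3 112938474 to 112973251 and OAS2 112978519 to 113011723, so the cluster covers 104.8 kb. OASL lies 8.01 Mb farther along, at 121017761 to 121039246. Promoter letters from RefSeq (GRCh38.p14) were matched for OAS1 and OAS3 and not for OAS2 and OASL. The 160 bases before the annotated start of each are shown because all 4 genes were lower in the clones, with capitals for every match to AANNGAAA, the core that interferon regulatory factors recognise, or to GAAANNGAAA, the response element core that contains it. The stretches are chr12:112906802-112906961 for OAS1 and chr12:112938314-112938473 for OAS3, both on the plus strand.
OAS1: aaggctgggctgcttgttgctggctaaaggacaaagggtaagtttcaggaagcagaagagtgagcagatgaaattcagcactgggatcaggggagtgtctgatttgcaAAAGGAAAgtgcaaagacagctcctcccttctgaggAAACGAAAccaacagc
OAS3: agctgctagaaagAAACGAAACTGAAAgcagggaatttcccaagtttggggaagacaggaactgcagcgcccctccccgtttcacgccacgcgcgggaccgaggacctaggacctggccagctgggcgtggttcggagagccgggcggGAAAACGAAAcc

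In OAS3, GAAANNGAAA matched at bases −143 to −134 and −12 to −3 counted from the start, and AANNGAAA also matched at −147 to −140, overlapping the first of these. In OAS1, AANNGAAA matched at −52 to −45 and −16 to −9, and GAAANNGAAA had no match in the window. With the base before it, the second of these matches reads GAAACGAAA, where GAAA is repeated with 1 base between. GAAANNGAAA cannot match that spacing, so its absence does not mean that OAS1 lacks a response element. Both strands of the 300 bases from 250 before to 50 after each start were searched. Of all 35116 promoters of that length 3.57% held GAAANNGAAA and 22.8% held AANNGAAA. Of 34 other interferon-stimulated genes with a promoter in the table, 26 held the first in at least 1 promoter and 32 the second. A match is a string of letters, and binding was not measured.

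The signals below are spot intensities above the blank spots of the array, in arbitrary scanner units, after quantile normalization between the arrays. The clones share the 1 parental array, which has no spread of its own, and limma's fit assumes that it varies like the clones. In cell cultures of this kind a drop in all cells cannot be told apart from a drop in some of them.

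OAS1, the smallest of the enzymes, had a signal of 441.0 in GR1, 610.4 in GR3 and 514 in GR4, against 5639.7 in parental cells. The 3 clones lay close together, within 0.47 on the log2 scale, and far below the parental array. The log2 difference was −3.45 ± 0.23 (standard error, 3 clones against 1 parental array), and limma's adjusted p was 0.0442. By rank this was the 31st lowest difference of the 22796 tested probes.

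OAS2, a larger synthetase with repeated OAS domains, had a signal of 35.7 in GR1, 59.8 in GR3 and 53.5 in GR4, against 460 in parental cells. GR1 was the lowest, 1.67-fold below GR3, and all 3 clones were well below the parental array. OAS2 fell by 3.24 ± 0.35 on the log2 scale (limma, adjusted p = 0.0466). The raw spots of the clones were 4.4 to 7.0 times the limit of detection, against 35.0 times on the parental array, so OAS2 was the dimmest of the 4 probes but not at the floor.

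OAS3, the largest synthetase and in human cells a main source of 2-5A, had a signal of 708 in GR1, 1122 in GR3 and 1078 in GR4, against 5699 in parental cells. GR3 and GR4 were nearly equal, 1.04-fold apart, and GR1 was 1.52-fold below GR4. The log2 difference was −2.59 ± 0.33, and limma's adjusted p of 0.0511 missed the threshold of 0.05.

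OASL, the member without enzyme activity, had a signal of 69.7 in GR1, 234 in GR3 and 191 in GR4, against 1951 in parental cells. The clones spread more here than for any synthetase, with GR1 3.35-fold below GR3 and 2.74-fold below GR4. The log2 difference was −3.74 ± 0.81, and limma's adjusted p was 0.0863. In GR1 alone OASL had the 5th lowest difference of all tested probes (−4.81), against the 43rd lowest in GR3 (−3.06) and the 41st lowest in GR4 (−3.35). OASL had the largest mean difference of the family and the widest spread, but the rank rests on GR1. OAS1's difference was lower than that of OASL by 0.15 in GR3 and 0.10 in GR4, while in GR1 it was higher by 1.13. Without GR1, OASL was at −3.20 and OAS1 at −3.35.

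**Figure D1:**
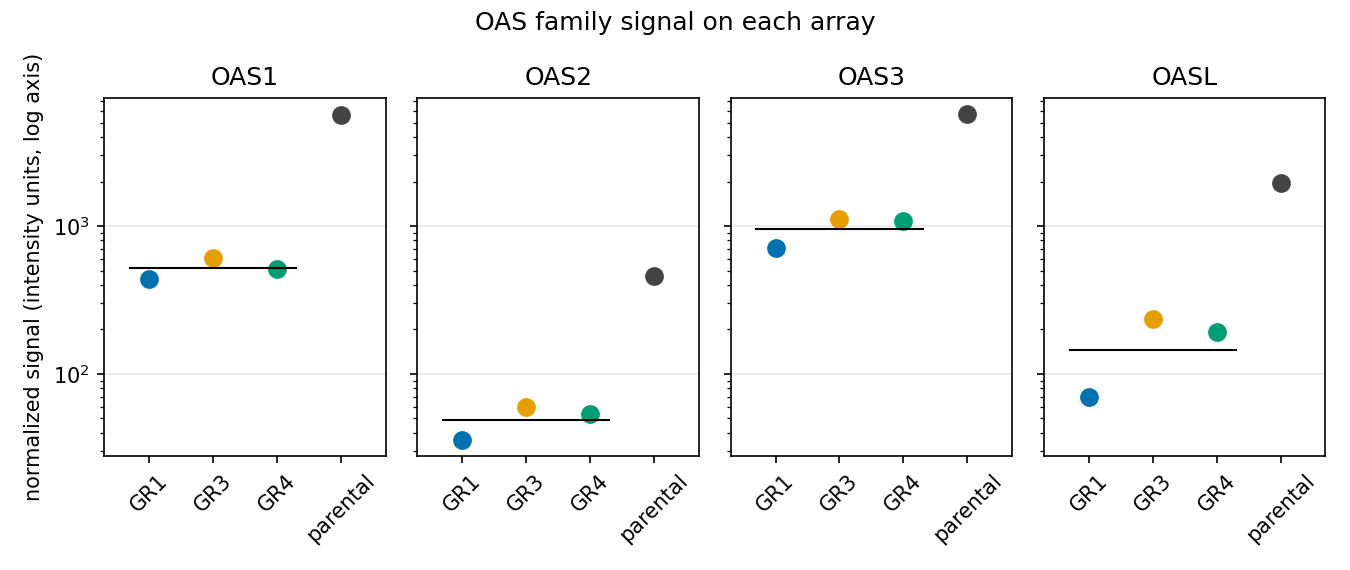
Normalized signal (intensity units, log axis) of OAS1, OAS2, OAS3 and OASL on the arrays of clones GR1, GR3 and GR4 and of parental Panc1 cells, 1 point for each array, with a line at the mean log2 signal of the 3 clones. The clones sit 5.08-fold to 28.0-fold below the parental point, and GR1 is the lowest clone in each panel.

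Of the 4 probes 2 passed limma as lower and 0 as higher, against 1.77% of all tested probes that passed as lower and 1.92% as higher. With any 1 clone left out, 0 of the 4 passed (adjusted p from 0.0768 to 0.228), and 0 of all probes did, although the fit then has 1 residual degree of freedom and the log2 differences stayed between −4.07 and −2.40. Normexp correction on the spot column and the column headed as background reduced OAS2 to −2.10 (4.29-fold) and OASL to −2.01 (4.02-fold), while OAS1 was at −3.36 and OAS3 at −2.82, and only OAS2 passed there (limma, adjusted p = 0.0432). That second column held 13% of the spot's own value for OAS2 and 81.4% for OASL on the parental array. Its log correlation with the spot across gene probes was 0.932 to 0.962, so its use as a background is in doubt. Normexp also added an offset of 50 units to each corrected signal, beside raw spots of 47.5 to 70.0 for OAS2 in the clones. The part of the offset in these values, and in the other normexp values given below, was not tested.

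**Figure D2:**
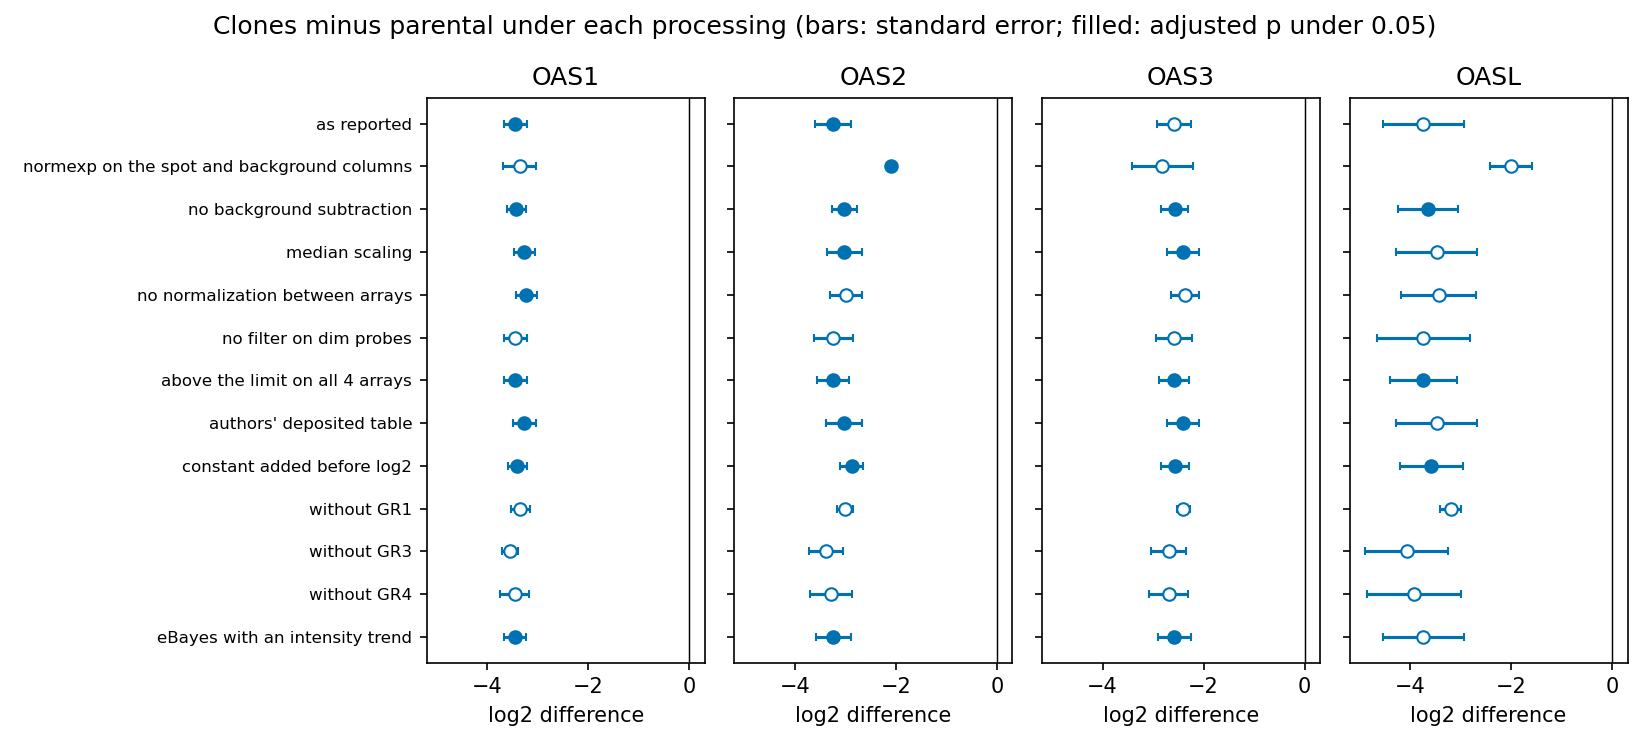
Log2 difference (clones minus parental, x axis) of each OAS gene under each processing (rows), with the standard error as bars and filled points where limma's adjusted p was under 0.05. All points lie below 0, and the values of OAS2 and OASL under normexp, −2.10 and −2.01, lie nearest to it.

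The size of the difference varied among the members. Within each clone, OAS3 had the smallest difference from parental cells: OAS1's difference was lower than that of OAS3 by 0.67 in GR1, 0.86 in GR3 and 1.05 in GR4 on the log2 scale, a mean gap of −0.86 ± 0.19 (SD, n = 3). OAS2's was lower than that of OAS3 by 0.68, 0.60 and 0.70, a mean gap of −0.66 ± 0.05. OASL lay below OAS3 by 1.8 in GR1, 0.72 in GR3 and 0.95 in GR4. OAS1 and OAS2 were nearly level, with a gap of −0.20 ± 0.19 (SD, n = 3). No test was made of these gaps, because an exact sign-flip test over 3 clones cannot give a two-sided p below 0.25 and all gaps share the parental array. With normexp on both columns the order differed, with the smallest mean difference for OASL and the largest for OAS1.

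GR1 had the lowest signal of the 3 clones for all 4 genes, followed by GR4 and then GR3. Each clone has 1 array, so a difference between clones has no replicate check. Over all 16592 tested genes GR1 was the lowest clone for 32.6% and this full order held for 18.8%. Over 36 other interferon-stimulated genes GR1 was the lowest for 31, and the full order held for 15. Among the 598 genes at least 2-fold lower in all 3 clones, GR1 was the lowest for 51.8% and the full order held for 31.3%. GR1 was the lowest clone for all 4 OAS genes under 5 of the 6 alternatives that change the signals. With normexp on both columns it was the lowest for OAS2 and OASL, and GR4 for OAS1 and OAS3.

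Of the 4 measured partners of the 2-5A pathway 0 were lower in all 3 clones and 3 were higher. Of all 16592 tested genes 6276 were lower in all 3 clones and 5865 were higher, and 4 genes are too few to set against these shares. ABCE1, a ribosome recycling factor, had a signal of 254 in GR1, 262 in GR3 and 298 in GR4, against 89.5 in parental cells. It rose 3.03-fold (log2 difference 1.60 ± 0.15, limma adjusted p = 0.0442). PDE12, a phosphodiesterase that degrades 2-5A, had a signal of 44.8, 33.2 and 40.5 in GR1, GR3 and GR4, against 16.3 in parental cells. All 3 clones lay at least 2-fold above the parental array for PDE12 and ABCE1, as for 3.66% of all genes, but PDE12's log2 difference of 1.27 ± 0.21 did not pass limma (adjusted p = 0.0639). AKAP7, which degrades 2-5A in mouse, was at 0.17 ± 0.18 (limma, adjusted p = 0.582). ENPP1, an ectoenzyme that cleaves the cGAS product cGAMP, was at 0.32 ± 0.35 (limma, adjusted p = 0.598). The list therefore had 0 genes lower and 1 higher past the test among 4 measured, with a median log2 difference of 0.79, against −0.02 over all tested genes. With normexp on both columns that median was 0.11 and 0 of the 4 passed, and with a constant of 16 added before log2 the median was 0.50.

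Among 14 genes that sense or edit nucleic acids beside the OAS proteins, 6 fell and 0 rose by limma, and 7 were at least 2-fold lower in all 3 clones. The median log2 difference was −1.11. It was −0.82 with normexp on both columns, −0.84 with median scaling, −0.79 with no normalization and −0.83 with the authors' deposited table. For comparison, 1.89% of all tested genes passed as lower, 2.17% as higher, and 3.60% were at least 2-fold lower in all 3 clones. The largest drops past the test were those of TLR3 (−2.91 ± 0.16), the endosomal receptor for double-stranded RNA, DHX58 (−2.64 ± 0.17), a RIG-I-like receptor, and RIGI (−2.55 ± 0.20), the sensor that OASL supports. EIF2AK2, the kinase PKR, which shares its double-stranded RNA trigger with the synthetases, fell by 1.35 ± 0.12. CGAS, structurally related to the OAS enzymes, had a signal of 182, 223 and 205 in GR1, GR3 and GR4, against 116 in parental cells. Its log2 difference of 0.81 ± 0.16 did not pass (limma, adjusted p = 0.0791). ADARB1 (0.90 ± 0.22), DICER1 (0.54 ± 0.13) and DHX9 (0.40 ± 0.13) did not pass either (limma, adjusted p = 0.103, 0.0988 and 0.150). These and CGAS were the 4 of the 14 genes higher in all 3 clones, as were 5865 of all 16592 tested genes.

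Of 18 measured genes of interferon signalling 3 fell and 0 rose by limma, and the median log2 difference was −0.56, or −0.24 with normexp on both columns. USP18, an interferon-induced brake on the receptor, fell by 3.35 ± 0.30 on the log2 scale. IRF9, the DNA-binding partner of STAT2, fell by 2.07 ± 0.10, and IL10RB, a chain of the receptor for type III interferons, fell by 1.38 ± 0.15. IRF9 had a signal of 57.4, 56.9 and 56.6 in GR1, GR3 and GR4, against 239 in parental cells, with hardly any spread between the clones. STAT2 was at −2.20 ± 0.29 (limma, adjusted p = 0.0518) and IRF7 at −1.86 ± 0.31 (limma, adjusted p = 0.0635), and neither passed. Of 9 measured interferon genes 2 fell and 0 rose, with a median log2 difference of −0.36. They were IFNL3 (−2.06 ± 0.14) and IFNL1 (−1.12 ± 0.12), which are named after their values were seen. Their signals were dim, at 4.57 to 5.27 in the clones against 20.6 in parental cells for IFNL3, and at 5.69 to 6.32 against 12.9 for IFNL1. With normexp on both columns 0 of the interferon genes passed and their median was −0.03. That median was −0.15 with the constant added, −0.21 with no background subtraction and −0.22 with no normalization.

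Of 36 other interferon-stimulated genes 20 fell and 0 rose by limma, and 34 were at least 2-fold lower in all 3 clones. Their median log2 difference was −2.47 (5.54-fold lower), beside a median of −3.34 (10.2-fold lower) over the 4 OAS genes. The largest drops past the test were those of IFI44L (−4.07 ± 0.36), IFITM1 (−3.98 ± 0.48), a membrane protein that restricts virus entry, and RTP4 (−3.80 ± 0.31). The OAS values lie inside the range of this list, which ran from −4.07 to −0.82. With normexp on both columns the median of the list was −2.13 and 11 of the 36 passed. There OAS1 was at −3.36, OAS2 at −2.10, OAS3 at −2.82 and OASL at −2.01, so OAS2 and OASL did not lie below that median.

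**Figure D3:**
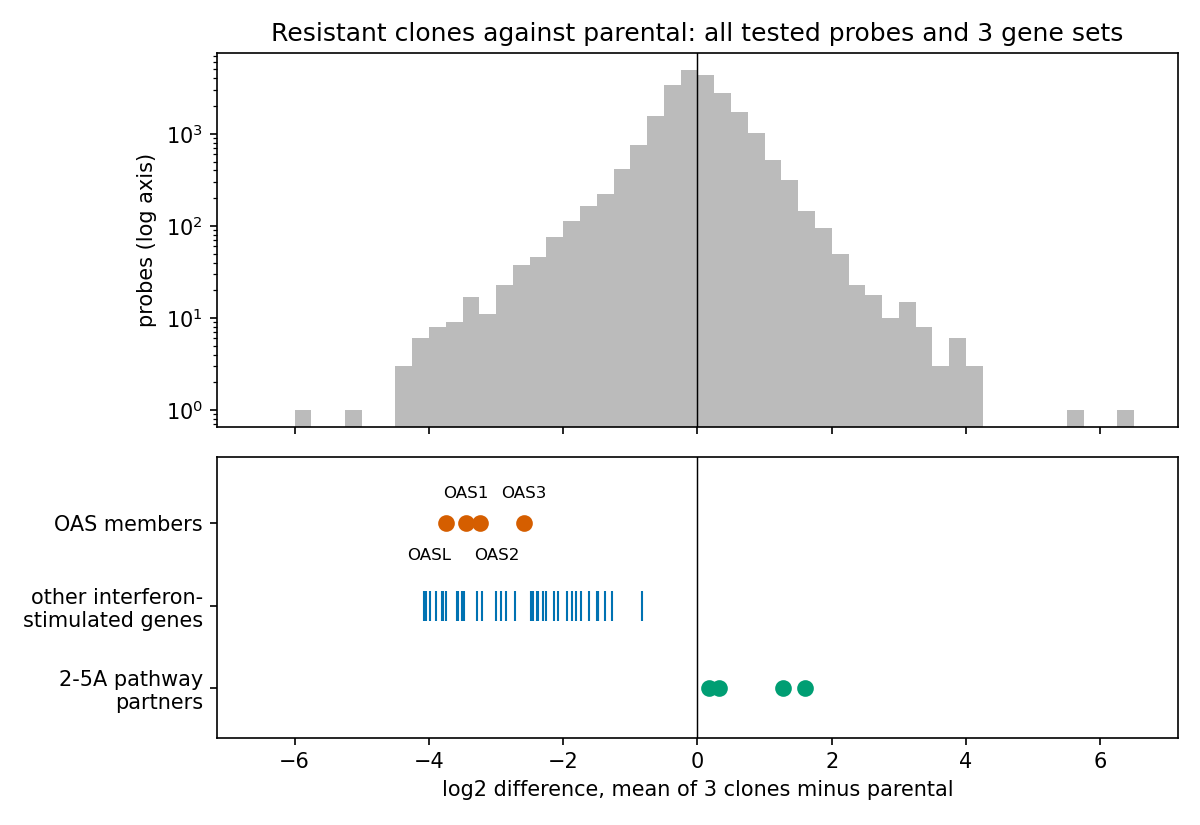
Top, number of tested probes (log axis) by log2 difference between the mean of the 3 clones and the parental array. Bottom, on the same x axis, the 4 OAS genes between −3.74 and −2.59, 36 other interferon-stimulated genes between −4.07 and −0.82, and 4 partners of the 2-5A pathway between 0.17 and 1.60, 1 mark for each gene.

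The genes with the most similar pattern were found by the root mean square difference of log2 signal over the 4 arrays, after each probe's own mean was subtracted. For OAS1 these were RSAD2 (0.052), the antiviral enzyme viperin, CLEC7A (0.159), the receptor dectin-1, and EGLN3 (0.164), an oxygen-sensing prolyl hydroxylase. RSAD2 had a signal of 63.5, 91.0 and 80.9 in GR1, GR3 and GR4, against 881 in parental cells. For OAS2 they were HLA-DRB1 (0.137) and HLA-DRA (0.138), chains of an MHC class II molecule, and USP18 (0.144). HLA-DRB1 was near the floor of 1.52 in the clones, at 2.04 to 4.12, and HLA-DRA was dim, at 6.10 to 13.3. For OAS3 they were GBP4 (0.074), a guanylate-binding protein, XAF1 (0.077) and PARP9 (0.094). For OASL they were HLA-DPA1 (0.178), which was at the floor of the scale in GR1, BTG2 (0.226), an antiproliferative gene, and IFIT1 (0.246), which binds viral RNA caps. BTG2 was dim in the clones, at 3.86 to 9.55.

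Within the family the closest pair was OAS1 and OAS2, at 0.159. OASL and OAS3 were the farthest apart, at 0.642. Over 4 arrays of which 1 stands apart, this measure mostly compares the size of the drop, and it carries no test.

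No measured neighbour of the OAS genes passed limma's test. Of all tested genes 1.89% passed as lower and 2.17% as higher, so 0 among so few neighbours is near these shares. Of 11 measured protein-coding genes among the 6 on each side of the cluster, 0 passed by limma's adjusted p, and at an unadjusted p under 0.05 4 were lower and 4 higher. Their median log2 difference was −0.03. Over all 22796 tested probes, 6870 had an unadjusted p under 0.05. Directly before OAS1, RPH3A was at 0.17 ± 0.14, and directly after OAS2, DTX1 was at −0.53 ± 0.12. At least 2-fold lower in all 3 clones were TRAFD1 and DRC10, as were 3.60% of all tested genes. TRAFD1, an interferon-induced zinc finger protein that dampens innate signalling, had a signal of 261, 380.4 and 322 in GR1, GR3 and GR4, against 1076 in parental cells (−1.76 ± 0.26, limma adjusted p = 0.0546). DRC10, a subunit of a ciliary dynein regulatory complex, had 13, 13.3 and 16.5, against 38.4 (−1.44 ± 0.19, limma adjusted p = 0.0522). Around OASL 9 genes were measured, with log2 differences from −0.98 to 0.79, and 0 passed limma or the 2-fold rule, against 2 lower and 1 higher at an unadjusted p under 0.05.

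**Figure D4:**
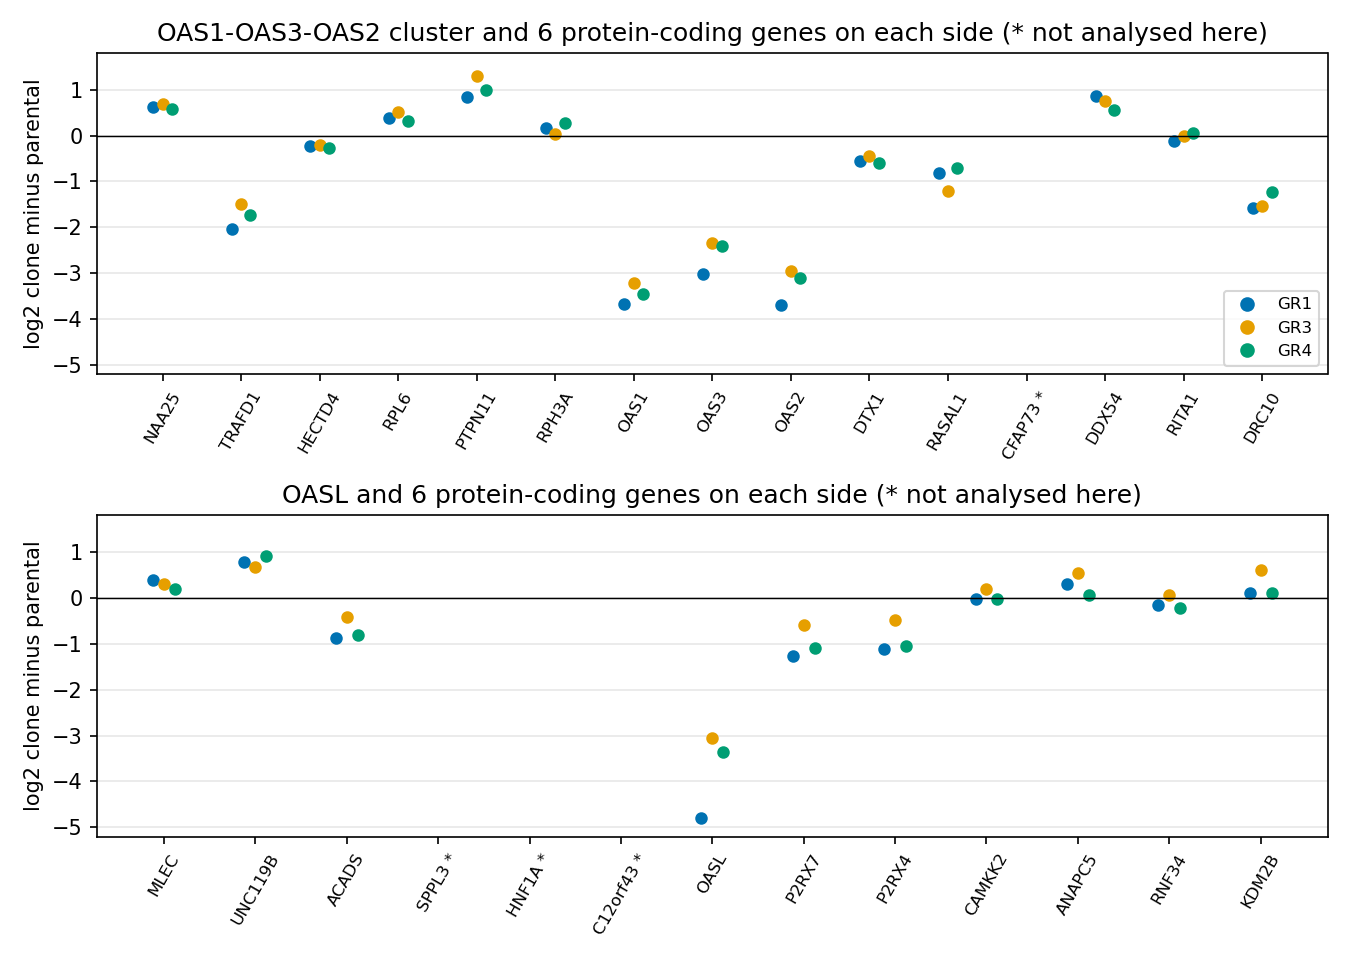
Log2 difference of each clone from the parental array (y axis, 1 point for each clone) for genes in chromosomal order, with the OAS1-OAS3-OAS2 cluster above and OASL below, each with 6 protein-coding genes on either side. By the mean of the 3 clones, the OAS genes lie between −3.74 and −2.59 and the neighbours between −1.76 and 1.05. Points of single clones lie above or below these means.

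The arrays were similar in depth, with 91.5% to 93.7% of gene probes above the limit. The spots of Positive Control 2 averaged 15546.5 to 16703 units above the blank mean on the clones, against 8855 on the parental array, and those of Positive Control 1 averaged 42864 to 46713 against 45051. The keratins KRT7, KRT18 and KRT19, which mark ductal carcinoma cells, were above the limit on all arrays. Of 4 measured leukocyte markers, PTPRC and CD3E were at or near the floor on all arrays, and the summed signal of the list was 49.0 to 57.4 in the clones, against 118 in parental cells, through CD14 (33.2 to 41.9 against 97.9). The summed signal of 4 fibroblast markers was 172 to 178 against 214, with COL1A1 and COL1A2 near the floor. The summed signal of 2 endothelial markers was 14.8 to 17 against 20.5. That of 2 acinar markers was 48.5 to 63.1 against 51.3 and that of 3 endocrine markers 11.2 to 13.6 against 15.6, with CPA1 and GCG at the floor on all arrays. The part of these differences in the OAS values was not tested.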

How the data were processed

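Groups and clone names follow the sample titles; the labels' protocol text numbers the clones differently. Amplified Cy5-labelled RNA was hybridized to 1 array per sample, and the deposited scanner files hold the median intensity of every spot at 635 nm, per the file headers. A second deposited file holds the authors' intensity values with the blank spots subtracted. Its values were recovered as the spot minus the mean of the middle 90% of 2680 blank spots, scaled to a median of 25. Here the same blank mean was subtracted, signals were quantile normalized, raised to a floor of 1.52 units and put on log2 (R 4.3.3, limma 3.58.1). Of 24460 gene probes 11 with a faulty spot were left out, and 22796 were tested with limma (lmFit, eBayes, two-sided, Benjamini-Hochberg over all tested probes, threshold 0.05). A tested probe exceeded the blank mean by 2 SD of the blanks in parental cells or in every clone. The fit has 2 residual degrees of freedom. The clones come from 1 selection, so p-values cover the spread among these cultures only, which may be technical.

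Names came from the platform annotation (20236 probes with 1 symbol, 0 with several, 4224 with none), updated through RefSeq for 2899. A gene of a list was represented by its brightest probe. Some genes of the lists are not reported here. The OAS genes and the lists were chosen with earlier results of these data known. Named were the OAS genes, all measured 2-5A partners and the 3 largest changes past the threshold in each of 3 lists. Also named were IRF9, STAT2, IRF7, EIF2AK2, RIGI, CGAS and the sensing genes higher in all 3 clones. Neighbours 2-fold apart in all 3 clones and the 3 genes most similar to each member were named too. RPH3A and DTX1 were named for their place. Probe sequences were not used here, and hybridization of 1 member's RNA to another's probe was not tested. Other background corrections, normalizations, filters and left-out clones were tried. The number of arrays limits the precision.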

Additional observations from a re-analysis of the deposited data

How the results depend on the processing

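All 4 OAS genes were lower in every clone under each of the 12 alternatives, with log2 differences from −3.55 to −3.23 for OAS1, −3.39 to −2.10 for OAS2, −2.82 to −2.36 for OAS3 and −4.07 to −2.01 for OASL, and all 4 were at least 2-fold lower in each clone that was kept, and at least 4-fold lower except OASL with normexp on both columns (3.19-fold). Of these 12 alternatives 6 change the signals. The changed filters and the intensity trend leave the log2 differences of the OAS genes as reported, so their direction there was fixed in advance. Leaving a clone out reuses the same spots of the other arrays. Which of the OAS genes passed limma depended on the processing. With all probes above the limit on all 4 arrays 4 passed (OAS3 −2.59, OASL −3.74), as with no background subtraction (OAS3 −2.57, OASL −3.65) and with a constant of 16 added before log2 (OAS3 −2.56, OASL −3.58). OAS3 also passed with median scaling (−2.41), with the authors' deposited table (−2.40) and with an intensity trend (−2.59). OAS2 did not pass with no normalization (−2.98, 1 member passing), nor OAS1 with normexp on both columns (−3.36, 1 member passing). With no filter on dim probes 0 members passed (OAS1 −3.45, adjusted p = 0.0518; OAS2 −3.24, adjusted p = 0.0649), and 0 passed without GR1, GR3 or GR4, where OAS1 ran from −3.55 to −3.35 and OAS2 from −3.39 to −3.0. Over all probes limma called 841, and 165 with normexp on both columns, 259 with no normalization, 1274 with the authors' deposited table, 1551 with an intensity trend, 2664 above the limit on all arrays, 3777 with the constant and 4079 with no subtraction. It called 0 with no filter on dim probes (7072 at an unadjusted p under 0.05) and 0 with any clone left out (4553 to 7852 at an unadjusted p under 0.05). The share of calls that were higher was 52.1%, and 38.2% with normexp on both columns, 62.0% with median scaling and 66.9% with the authors' table. At least 2-fold apart in all 3 clones were 1516 probes, and 372 with normexp on both columns, 792 with the constant, 931 with no subtraction, 3920 at 1.5-fold and 460 at 3-fold. In the gene lists, past limma were 0 to 36 other interferon-stimulated genes (20 as reported), 0 to 12 sensing genes (6), 0 to 8 signalling genes (3), 0 to 2 interferon genes (2) and 0 to 2 partners of the 2-5A pathway (1), with 0 in every list when dim probes were kept. No paired analysis was possible because all 3 clones share 1 parental array.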
